A study of Mus musculus with 46 samples.

Results

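Tryptophan and the compounds made from it were followed through metabolite tables of mouse kidney, liver and serum after castration and between the sexes. The set holds every compound whose name contains tryptophan, tryptam, indol, indox, kynuren, serotonin, quinolinic or xanthurenic, in any case. That rule found 84 entries among 5760 named entries in 6 tables, which are 37 distinct compounds once spelling variants are merged. No entry matched xanthurenic. All mice were wild-type C57BL6. Castrated males (CasM) had their testes removed at 8 weeks of age, and sham-operated females (ShamF) and sham-operated males (ShamM) had surgery without removal at that age. Kidney, liver and serum were taken at 12 weeks or at 18 months, so each table holds these 3 arms at 1 age. Kidney and liver RNA was sequenced from mice of the same arms, in 46 libraries, and the labels do not say whether they were the animals of the metabolite tables.

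Tryptophan is an essential amino acid with an indole ring, and it leaves protein metabolism by 3 main ways. In the liver, and in immune cells, its ring is opened to kynurenine, which leads to kynurenic acid, quinolinic acid and NAD. Hydroxylation and decarboxylation give serotonin, which monoamine oxidase and aldehyde dehydrogenase turn into 5-hydroxyindoleacetic acid. Gut bacteria split or deaminate tryptophan to indole, indolepyruvate, indolelactate, indoleacetate and indole aldehydes. The liver oxidises and sulfates indole to indoxyl sulfate, which the kidney secretes into urine through organic anion transporters and which accumulates in blood when kidney function falls.

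The deposited metabolite tables give 1 mean per arm and no value per animal, so no error and no test can be attached to any metabolite value here. A ratio below is the quotient of the means of the named arms, and a compound is counted as past 2-fold when that ratio is above 2 or below its inverse. The same share among all named compounds of the table is the background for each count. Means have an arbitrary unit that differs between tables, so levels are compared only within a table. Serum means at 12 weeks are printed in millionths of the deposited unit. Entries for the L, D or DL form of the same compound in the same table gave a measure of disagreement between entries. The labels do not say whether these forms were separated, so a D and an L entry may be separate compounds. The tryptophan entries are among the pairs. Over 35 such pairs in all tables, the median gap between their log2 ratios was 0.129 for CasM over ShamM and 0.189 for ShamF over ShamM, and 6 and 12 pairs differed by more than 0.5 on the log2 scale. The sum of all compounds was lower in ShamF kidneys at 18 months, at 0.761 of the ShamM sum. In the other arms and tables it lay between 0.903 and 1.09 of the ShamM sum. The RNA carried its tissue's markers: 6 kidney tubule genes summed to between 2275 and 2657 FPKM in 12-week kidneys and to at most 0.745 FPKM in 12-week livers. Of the 5 hepatocyte genes, Alb stood at the deposited floor of 0.01 FPKM in all 3 arms of 12-week liver, while the 5 genes together summed to between 18741 and 26055 FPKM there.

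**Figure D1:**
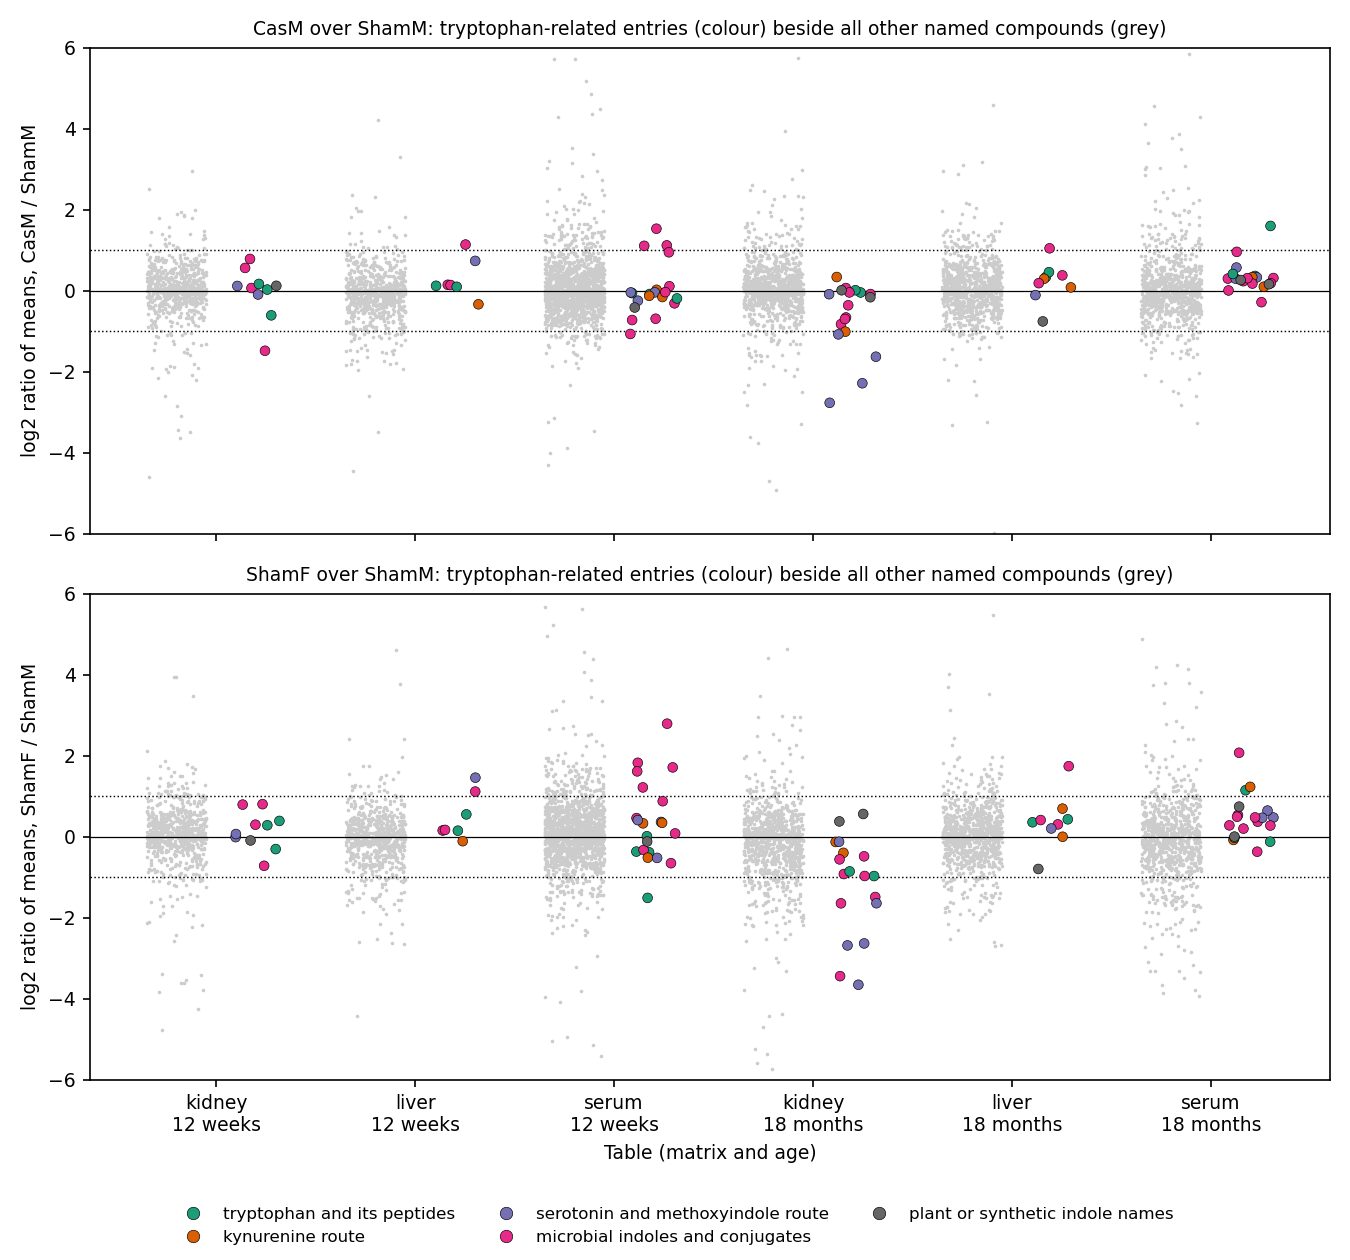
Log2 ratios of group means (vertical axes) for CasM over ShamM and ShamF over ShamM in each of the 6 tables (horizontal axis), with tryptophan-related entries in colour by route and all other named compounds in grey. The coloured points at 18 months lie mostly below 0 in kidney, with a median of -0.95 for ShamF over ShamM, and mostly above 0 in serum, with a median of 0.47. A further 62 grey points lie outside the axis range.

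Counts of large ratios were set beside the share of all compounds, since the tables hold unlike numbers of members. Past 2-fold for CasM over ShamM there was 1 of 10 members in 12-week kidney (background 9.54% of all compounds), 1 of 7 in 12-week liver (10% of all) and 4 of 21 in 12-week serum (12.8% of all). At 18 months there were 5 of 18 in kidney (12.8% of all), 1 of 9 in liver (10.5% of all) and 1 of 19 in serum (15.3% of all). All 5 kidney members were lower in CasM, against 5.69% of all compounds that were lower by that margin, and 3 were left when compounds of low mean were left out. For ShamF over ShamM the counts at 12 weeks were 0 of 10 in kidney (13.4% of all), 2 of 7 in liver (12.1% of all) and 6 of 21 in serum (18.4% of all). At 18 months they were 7 of 18 in kidney (19.1% of all), all lower in ShamF (13.5% of all compounds were lower by that margin), 1 of 9 in liver (13.5% of all past the limit in either direction) and 3 of 19 in serum (21.4% of all). The liver counts are not stable: with a pseudocount they were 0 for CasM over ShamM at both ages and 0 for ShamF over ShamM at 12 weeks. With every compound kept, kidney at 18 months was the table in which the members' share stood furthest above its background, in percentage points, in both comparisons. As a ratio to background, 12-week liver stood higher for ShamF over ShamM. In 18-month serum the members' share was below the background in both.

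The direction of the whole set also differed by table. In 18-month kidney 4 of 18 members were higher in CasM than in ShamM (54.1% of all compounds were), with a median log2 ratio of -0.26 beside 0.03 for all compounds. There, 2 of 18 were higher in ShamF than in ShamM (43.9% of all), with a median of -0.95 beside -0.09 for all compounds, and scaling the arms to equal sums made this 4 of 18 with a median of -0.55. In 18-month serum 18 of 19 members were higher in CasM than in ShamM (50.3% of all), with a median of 0.30 beside 0.00, and 15 of 19 were higher in ShamF (45.5% of all), with a median of 0.47 beside -0.08. The kidney and serum sets thus lay on opposite sides of 0 at 18 months. In 12-week serum 6 of 21 were higher in CasM (46.3% of all compounds were) and 13 of 21 in ShamF (56.4% of all), so the ShamF share was near that of all compounds. In liver, 6 of 7 at 12 weeks (43.3% of all) and 7 of 9 at 18 months (54.2% of all) were higher in CasM, and the same numbers held for ShamF (46.1% and 55.3% of all). In 12-week kidney 7 of 10 were higher in CasM (54.9% of all), which became 3 of 10 when the arms were scaled to equal sums, so no direction can be given there.

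Tryptophan in CasM was close to the ShamM level in kidney at both ages and in young serum, whereas in ShamF it was below ShamM in serum at 12 weeks and in kidney at 18 months. The L-tryptophan entry of 12-week serum had a mean of 279 in CasM and 225 in ShamF, against 290 in ShamM, and the DL-tryptophan entry had 236 and 190, against 248. In 18-month kidney L-tryptophan had 1.89 in CasM and 1.03 in ShamF, against 1.87 in ShamM, and DL-tryptophan had 0.683 and 0.358, against 0.703. The ShamF means were thus at 0.552 and 0.510 of ShamM in kidney while CasM stood at 1.01 and 0.972. In that table, scaling the arms to equal sums brought the log2 ratio of DL-tryptophan in ShamF to -0.58.

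In 18-month liver L-tryptophan had 2.03 in CasM and 1.98 in ShamF, against 1.47 in ShamM, and DL-tryptophan had 0.729 and 0.737, against 0.576. In 12-week liver DL-tryptophan had 0.624 in CasM and 0.635 in ShamF, against 0.573 in ShamM. Liver tryptophan was therefore at or above the ShamM level in both arms at both ages, by at most 1.38-fold. In 12-week kidney DL-tryptophan had 12.3 in CasM and 14.7 in ShamF, against 12.1 in ShamM. In 18-month serum the tryptophan entries disagreed. DL-tryptophan had 8.24 in CasM and 6.01 in ShamF, against 2.72 in ShamM, which is 3.03-fold and 2.21-fold, whereas L-tryptophan had 18.0 and 12.8, against 14, which is 1.29-fold and 0.918-fold. The gap of 1.23 (CasM over ShamM) and 1.27 (ShamF over ShamM) on the log2 scale is far above the median gap between such entries, and the cause was not tested.

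The other large neutral amino acids, which share membrane carriers with tryptophan, were measured in the same tables. In 18-month kidney L-tyrosine stood at 0.374, L-phenylalanine at 0.490, L-histidine at 0.491 and L-methionine at 0.517 of ShamM in ShamF, and L-valine at 1.04 and L-leucine at 1.12. The DL-tyrosine entry stood at 0.762, a gap of 1.03 from L-tyrosine on the log2 scale. Their median log2 ratio, with DL-tyrosine, was -0.95, so the low ShamF kidney value of tryptophan was shared with several of them. In 12-week serum, by contrast, 6 of 7 such entries were higher in ShamF than in ShamM (56.4% of all compounds were), with a median log2 ratio of 0.46, while both tryptophan entries were lower. Phenylalanine and tyrosine each count there with an L and a DL entry. The tyrosine entries lay on opposite sides of ShamM, at log2 ratios of -0.44 (L) and 0.31 (DL).

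Peptides of tryptophan were named in the 12-week tables only. Phenylalanyl-tryptophan had 0.0481 in CasM and 0.0560 in ShamF, against 0.0427 in ShamM, in kidney, and 0.00654 and 0.00894, against 0.00611, in liver. Tyrosyl-tryptophan in kidney had 0.0555 in CasM and 0.0683 in ShamF, against 0.0845 in ShamM. Both dipeptides end in tryptophan, and in kidney they lay on opposite sides of ShamM in CasM and in ShamF. Glutaminyltryptophan in serum had 1.25 in CasM and 0.463 in ShamF, against 1.32 in ShamM, so ShamF stood at 0.351 of ShamM and CasM at 0.947. Valyl-tryptophan in serum had 1.22 in CasM and 1.40 in ShamF, against 1.39 in ShamM. N-acetyltryptophan, a conjugate named in 18-month serum, had 0.298 in CasM and 0.220 in ShamF, against 0.224 in ShamM.

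**Figure D2:**
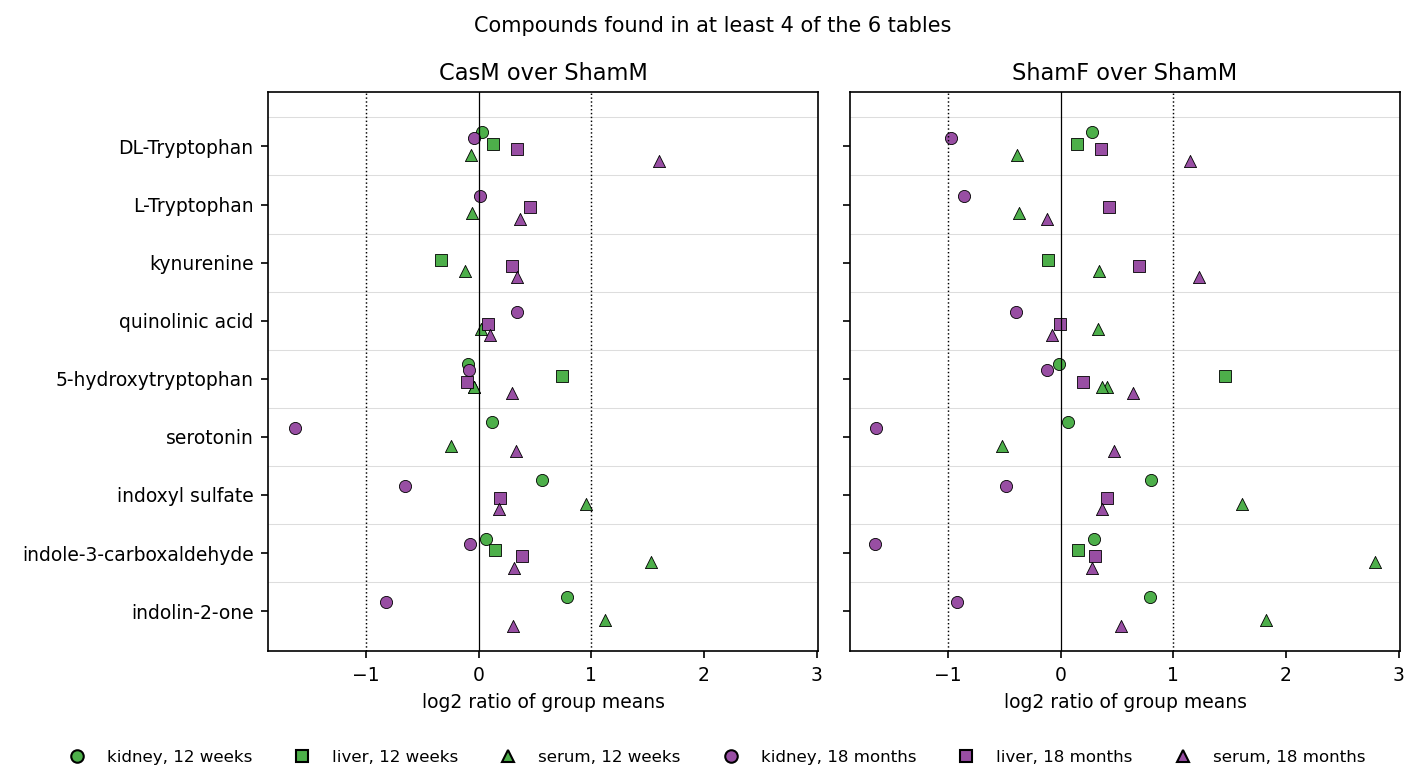
Log2 ratios of group means (horizontal axes) for CasM over ShamM and ShamF over ShamM, for each compound found in at least 4 of the 6 tables (rows), with marker shape for matrix and colour for age. Points of 1 compound spread on both sides of 0 across tables, as for indole-3-carboxaldehyde, which is at 6.91-fold in ShamF serum at 12 weeks and at 0.320-fold in ShamF kidney at 18 months.

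Kynurenine, the ring-opened product of tryptophan dioxygenase and indoleamine dioxygenase, was measured in liver and serum. In ShamF serum at 18 months it had its largest ratio. There it had 0.0628 in CasM and 0.117 in ShamF, against 0.0497 in ShamM, which is 1.26-fold and 2.35-fold. In 12-week serum it had 2.12 in CasM and 2.93 in ShamF, against 2.31 in ShamM. In liver it had 0.0115 in CasM and 0.0134 in ShamF, against 0.0145 in ShamM, at 12 weeks, and 0.0220 and 0.0289, against 0.0179, at 18 months. Liver kynurenine was thus below ShamM in both arms of young mice and above it in both arms of old mice. N'-formylkynurenine, the first ring-opened intermediate, was named in 12-week serum only, with 0.429 in CasM and 0.333 in ShamF, against 0.477 in ShamM.

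The quotient of kynurenine to tryptophan is commonly read as a measure of ring opening. Across the whole set, 53 product and precursor quotients were formed. With L-tryptophan as precursor, the ShamF quotient was 1.64 times the ShamM quotient in 12-week serum, 1.20 times in 18-month liver and 2.56 times in 18-month serum. The CasM quotient was 0.954, 0.894 and 0.980 times that of ShamM in these tables. In 18-month serum the quotients against DL-tryptophan were 1.06 for ShamF and 0.416 for CasM, so there the value depends on which tryptophan entry is taken. In 12-week liver, with DL-tryptophan as precursor, they were 0.836 for ShamF and 0.729 for CasM.

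Downstream, quinolinic acid, the precursor of NAD formed after 3-hydroxyanthranilate oxygenase, varied less. It had 11.9 in CasM and 14.7 in ShamF, against 11.7 in ShamM, in 12-week serum, and 0.435 and 0.384, against 0.406, in 18-month serum. In 18-month kidney it had 0.176 in CasM and 0.105 in ShamF, against 0.139 in ShamM. In 18-month liver it had 0.150 in CasM, 0.141 in ShamF and 0.141 in ShamM. Relative to kynurenine in 18-month serum, quinolinic acid stood at 0.849 of ShamM in CasM and 0.403 in ShamF, since kynurenine but not quinolinic acid was higher in ShamF. Kynurenic acid, made from kynurenine by aminotransferases, was named in 18-month kidney only, with 0.00219 in CasM and 0.00402 in ShamF, against 0.00440 in ShamM. Scaling the arms to equal sums put ShamF above ShamM. Its level is near the bottom of that table, at percentile 3.45 of mean level.

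NAD-related compounds outside the name rule were measured as well. Nicotinamide had 8.35 in CasM and 7.74 in ShamF, against 3.90 in ShamM, in 18-month liver, and 0.615 and 0.610, against 0.332, in 18-month serum. In 12-week serum it had 30.1 in CasM and 34.2 in ShamF, against 16.5 in ShamM. These ratios lay between 1.82 and 2.14 in both arms. In kidney and 12-week liver nicotinamide lay between 0.865 and 1.02 of ShamM. Anthranilic acid, the product of kynureninase acting on kynurenine, had 0.0371 in CasM and 0.0272 in ShamF, against 0.0139 in ShamM, in 12-week kidney.

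The serotonin route was lowest relative to ShamM in 18-month kidney. Serotonin there had 0.00294 in CasM and 0.00291 in ShamF, against 0.00908 in ShamM, so both arms stood at about the same fraction, 0.324 and 0.320. Its oxidised product 5-hydroxyindoleacetic acid had 0.00547 in CasM and 0.00211 in ShamF, against 0.0266 in ShamM, or 0.206 and 0.0794 of ShamM. The methoxylated acid 5-methoxyindoleacetic acid had 0.104 in CasM and 0.0342 in ShamF, against 0.220 in ShamM, or 0.475 and 0.156. All 3 amines and acids were thus low in both arms, and the 2 acids were lower in ShamF than in CasM. Their precursor 5-hydroxytryptophan had 0.00914 in CasM and 0.00888 in ShamF, against 0.00969 in ShamM, so it stood at 0.944 and 0.917 of ShamM, unlike its product serotonin, and above ShamM in ShamF when the arms were scaled to equal sums. The quotient of serotonin to 5-hydroxytryptophan was 0.343 in CasM and 0.349 in ShamF relative to ShamM.

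An amine that is not on the serotonin route, 1-methyltryptamine, had 0.00454 in CasM and 0.00496 in ShamF, against 0.0308 in ShamM, also in 18-month kidney, or 0.147 and 0.161 of ShamM. Among these compounds the mean level lay at percentile 5.99 of the table for serotonin, 14.1 for 5-hydroxyindoleacetic acid, 16.1 for 1-methyltryptamine and 52.8 for 5-methoxyindoleacetic acid, so the first 3 rest on low levels. Serotonin is carried in blood platelets. The summed RNA of 3 haemoglobin genes in 18-month kidney was 3387 in CasM and 1753 in ShamF, against 2218 in ShamM, so blood RNA was higher in CasM kidneys, and lower in ShamF kidneys, than in ShamM. Its part in the kidney serotonin values was not tested.

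**Figure D3:**
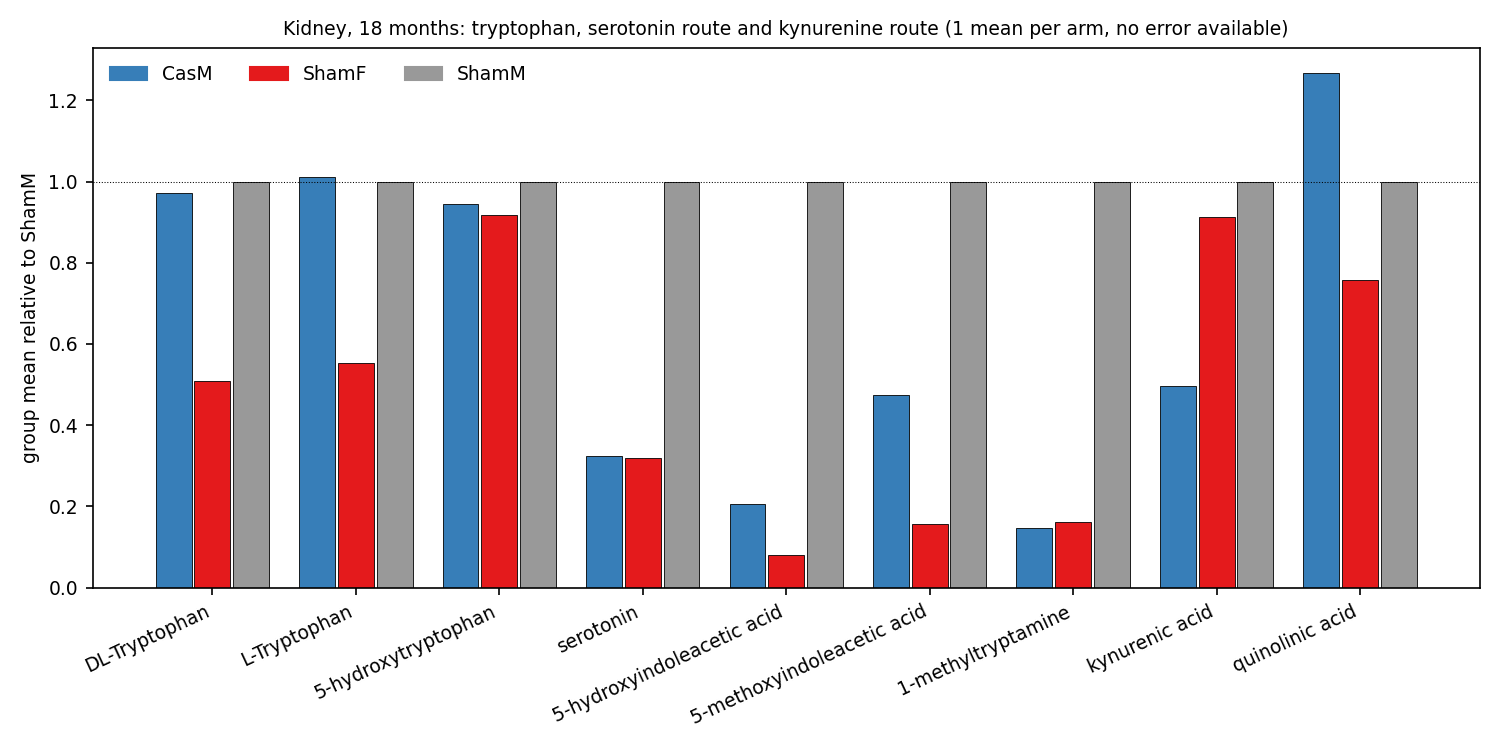
Group means relative to ShamM (vertical axis) for members of 18-month kidney, with bars for CasM, ShamF and ShamM beside each other, and ShamM at 1. Serotonin is at 0.324 in CasM and 0.320 in ShamF, and 5-hydroxyindoleacetic acid at 0.206 and 0.0794, while tryptophan is near 1 in CasM only.

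In other tables the route did not stand apart in this way. Serotonin had 47.7 in CasM and 39.3 in ShamF, against 56.5 in ShamM, in 12-week serum, and 1.05 and 1.16, against 0.834, in 18-month serum. In 12-week kidney it had 0.263 in CasM and 0.253 in ShamF, against 0.242 in ShamM, so the young kidney did not share the low values of the old one. For 5-hydroxytryptophan, serum at 18 months had 0.0873 in CasM and 0.111 in ShamF, against 0.0709 in ShamM. In 12-week serum its 2 entries had 6.06 and 0.780 in CasM and 8.27 and 1.03 in ShamF, against 6.23 and 0.801 in ShamM, so they gave like ratios, 0.973 and 0.974 for CasM and 1.33 and 1.29 for ShamF. In 12-week kidney it had 0.0761 in CasM and 0.0804 in ShamF, against 0.0811 in ShamM. In liver it had 0.00218 in CasM and 0.00359 in ShamF, against 0.00131 in ShamM, at 12 weeks, and 0.00267 and 0.00330, against 0.00287, at 18 months. The 2.74-fold value of ShamF liver at 12 weeks rests on a level at percentile 3.93 of its table, and was not past 2-fold with a pseudocount (log2 ratio 0.92). In 18-month serum 5-methoxytryptophan had 0.0873 in CasM and 0.0811 in ShamF, against 0.0586 in ShamM.

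The methoxyindole glucuronides are conjugates of hydroxylated methoxyindoles. In 18-month kidney 6-hydroxy-5-methoxyindole glucuronide had the lowest ratio of ShamF to ShamM among the members but for 5-hydroxyindoleacetic acid. Its means were 0.0420 in CasM and 0.00368 in ShamF, against 0.0400 in ShamM. CasM stood at 1.05 of ShamM and ShamF at 0.0919, so CasM was 11.4-fold above ShamF. The isomer named 5-hydroxy-6-methoxyindole glucuronide in 12-week kidney had 0.152 in CasM and 0.258 in ShamF, against 0.424 in ShamM. CasM was the lower arm there, at 0.358 of ShamM beside 0.608 for ShamF. The names differ in which ring carbons carry the hydroxyl and the methoxyl group, and they occurred in different tables, so no comparison between them was made.

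Indoxyl sulfate, a uraemic solute secreted by the organic anion transporters OAT1 and OAT3, was measured in 5 tables. In serum at 12 weeks it had 216 in CasM and 341 in ShamF, against 111 in ShamM, which is 1.93-fold and 3.06-fold. In 12-week kidney it had 1.47 in CasM and 1.74 in ShamF, against 0.995 in ShamM, which is 1.48-fold and 1.74-fold. Young mice thus had the order ShamF, CasM, ShamM in both matrices. In 18-month serum it had 10.3 in CasM and 11.8 in ShamF, against 9.12 in ShamM, and in 18-month liver 0.439 and 0.512, against 0.385. In 18-month kidney it had 1.30 in CasM and 1.47 in ShamF, against 2.05 in ShamM, which is 0.634-fold and 0.715-fold. Kidney was therefore the matrix whose indoxyl sulfate, in the deposited means, lay above ShamM in both arms at 12 weeks and below it in both arms at 18 months. The sum of all compounds in 18-month ShamF kidney was 0.761 of ShamM, and scaling the arms to equal sums brought ShamF indoxyl sulfate close to ShamM there. Relative to L-tryptophan, serum indoxyl sulfate at 12 weeks stood at 2.01 times the ShamM quotient in CasM and at 3.95 times in ShamF.

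**Figure D4:**
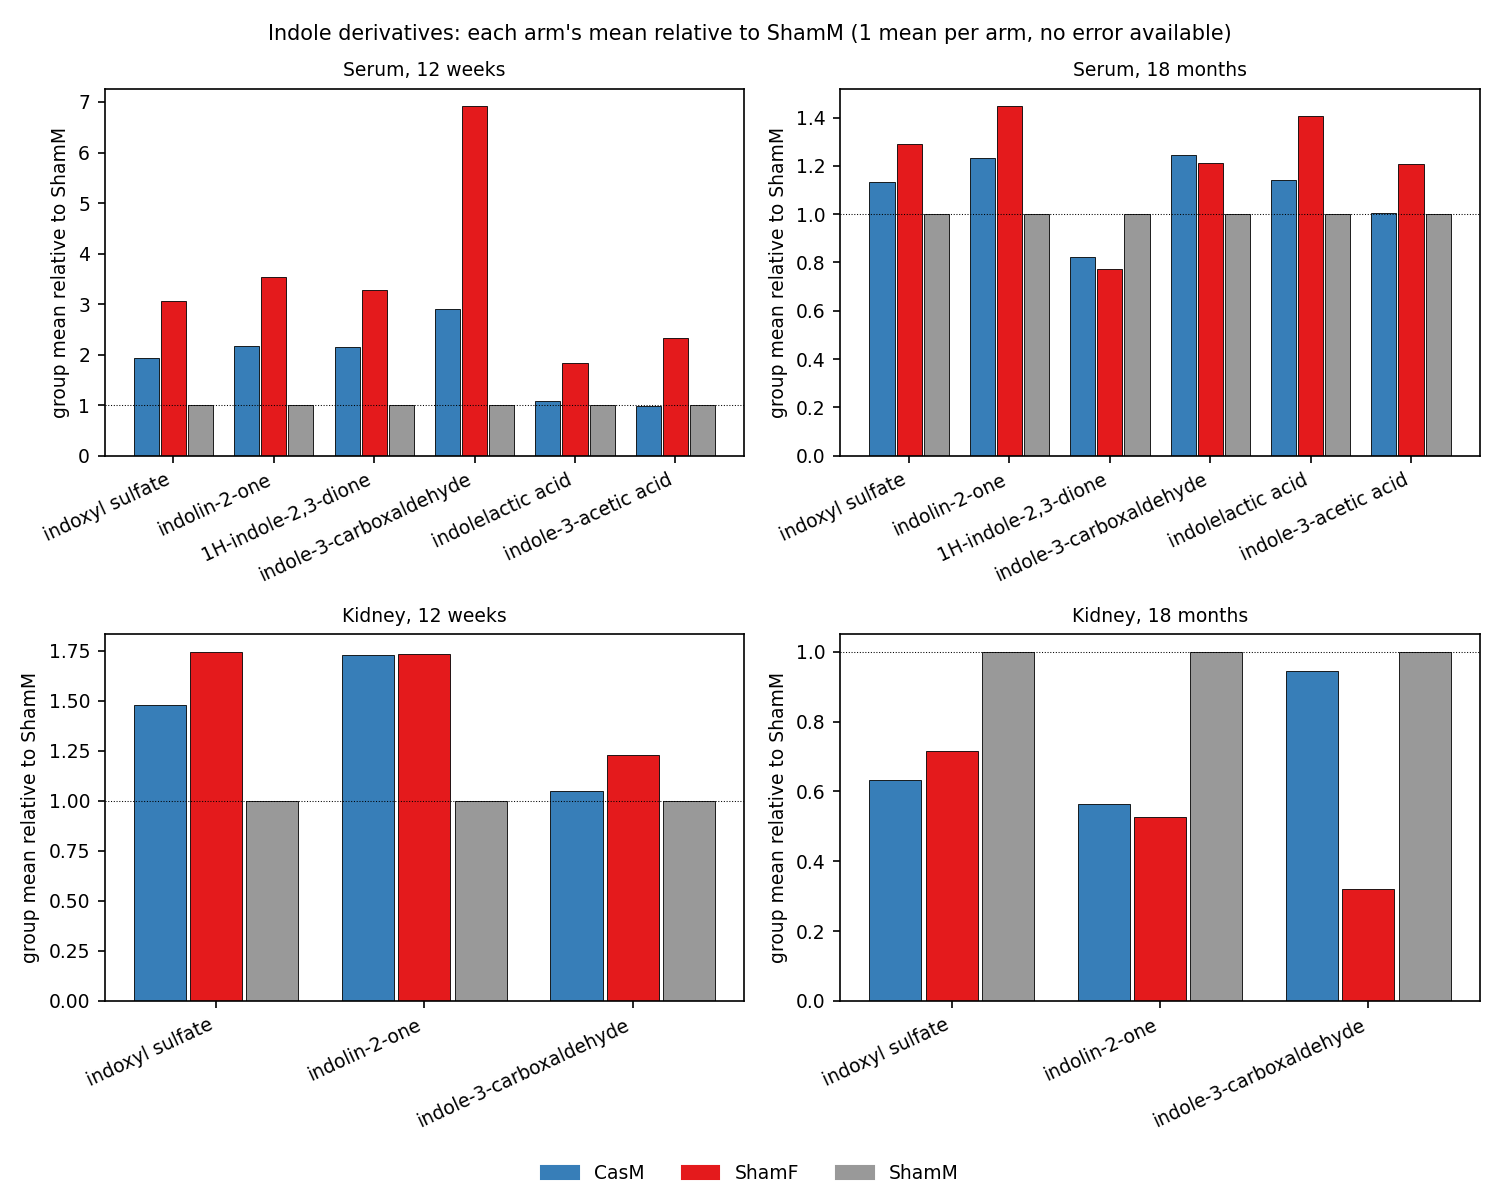
Group means relative to ShamM (vertical axes) for indole derivatives in the tables named above each panel, with bars for CasM, ShamF and ShamM side by side. In 12-week serum indole-3-carboxaldehyde reached 6.91 in ShamF and 2.89 in CasM, and indoxyl sulfate 3.06 and 1.93.

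Oxidised indoles moved beside it in young serum. Indolin-2-one (oxindole) had 19.3 in CasM and 31.4 in ShamF, against 8.87 in ShamM. The dione 1H-indole-2,3-dione (isatin) had 2.85 in CasM and 4.32 in ShamF, against 1.32 in ShamM. Indole-3-carboxaldehyde, a bacterial ligand of the aryl hydrocarbon receptor, had 7.87 in CasM and 18.8 in ShamF, against 2.72 in ShamM. These 3 and indoxyl sulfate were the members with the highest CasM and ShamF ratios in that table, and each had ShamF above CasM and CasM above ShamM. All 4 have an indole or oxidised indole ring without the side chain of the amino acid. Of 5 microbial co-metabolites outside the set in that table, 3 had the same order and 2 did not. P-cresol sulfate, made from tyrosine by gut bacteria, had 191 in CasM and 240 in ShamF, against 151 in ShamM. Hippuric acid had 10.7 in CasM and 19.9 in ShamF, against 8.58 in ShamM, and phenylacetylglycine had 5.55 and 7.58, against 4.10. Trimethylamine N-oxide had 124 in CasM and 116 in ShamF, against 88.7 in ShamM, and p-cresol glucuronide had 7.43 and 7.27, against 7.21, so in these CasM was above ShamF.

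At 18 months these compounds were closer to ShamM in serum. Indolin-2-one had 0.209 in CasM and 0.245 in ShamF, against 0.169 in ShamM, and indole-3-carboxaldehyde had 0.150 and 0.146, against 0.120. The dione had 0.176 in CasM and 0.165 in ShamF, against 0.214 in ShamM, so its direction was the opposite of that at 12 weeks. In 18-month liver the dione had 0.0288 in CasM and 0.0464 in ShamF, against 0.0139 in ShamM, which is 2.07-fold and 3.34-fold. It was the only member past 2-fold in that table, and its CasM value was no longer past 2-fold with equal sums per arm (log2 ratio 0.98) or with a pseudocount (0.97). In 18-month kidney indolin-2-one had 0.00723 in CasM and 0.00675 in ShamF, against 0.0128 in ShamM, and indole-3-carboxaldehyde had 0.0130 and 0.00440, against 0.0138. The aldehyde was low in ShamF kidneys only, at 0.320 of ShamM beside 0.946 for CasM.

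In young kidney indolin-2-one had 0.263 in both CasM and ShamF, against 0.152 in ShamM, which is 1.73-fold in each arm. Indole-3-carboxaldehyde had 0.275 in CasM and 0.322 in ShamF, against 0.263 in ShamM. In liver the aldehyde had 0.0138 in CasM and 0.0138 in ShamF, against 0.0124 in ShamM, at 12 weeks, and 0.0138 and 0.0130, against 0.0106, at 18 months. Its liver and kidney ratios in CasM and ShamF thus did not exceed 1.30 in any table, against 6.91 in ShamF serum at 12 weeks.

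Among the acids made by deaminating tryptophan, indolepyruvate had the widest range. In 12-week serum it had 9.70 in CasM and 27.9 in ShamF, against 20.3 in ShamM, so CasM stood at 0.478 and ShamF at 1.37 of ShamM. In 18-month serum it had 0.131 in CasM and 0.282 in ShamF, against 0.0671 in ShamM, which is 1.95-fold and 4.20-fold. ShamF was above CasM at both ages, while CasM lay below ShamM at 12 weeks and above it at 18 months. Indolelactic acid, its reduced form, had 4.92 in CasM and 8.35 in ShamF, against 4.55 in ShamM, at 12 weeks, and 0.234 and 0.289, against 0.205, at 18 months. Indole-3-acetic acid had 1.33 in CasM and 3.16 in ShamF, against 1.36 in ShamM, at 12 weeks, which is 0.978-fold and 2.32-fold. At 18 months it had 0.0669 in CasM and 0.0805 in ShamF, against 0.0665 in ShamM. All 3 acids were thus highest in ShamF serum at both ages. Indoleacetaldehyde, the aldehyde between the amine or pyruvate and the acetic acid, had 165 in CasM and 130 in ShamF, against 204 in ShamM, in 12-week serum. It stood at 0.635 of ShamM in ShamF, on the side of ShamM opposite to the acetic acid.

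The methyl ester of indoleacetic acid had 18.2 in CasM and 23.9 in ShamF, against 30.0 in ShamM, in 12-week serum, and 1.05 and 1.02, against 0.892, in 18-month serum. The amide 6-hydroxyindole-3-acetamide had 0.0111 in CasM and 0.0109 in ShamF, against 0.00504 in ShamM, in 12-week liver, which is 2.21-fold and 2.16-fold, and neither was past 2-fold with a pseudocount. It had 1.73 in CasM and 2.95 in ShamF, against 2.79 in ShamM, in 12-week serum, and 0.520 and 0.582, against 0.419, in 18-month serum. CasM and ShamF agreed within 1.02-fold in liver, whereas in young serum CasM was at 0.620 and ShamF at 1.06 of ShamM. Indole-3-carboxylic acid, named in 18-month kidney only, had 0.00141 in CasM and 0.00155 in ShamF, against 0.00229 in ShamM, at percentile 1.62 of level.

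The 3-indoleacrylic acid entries had ratios close to those of DL-tryptophan. In 18-month kidney 3-indoleacrylic acid had 1.06 in CasM and 0.557 in ShamF, against 1.09 in ShamM, with ratios of 0.973 and 0.510 beside 0.972 and 0.510 for DL-tryptophan. In 12-week liver it had 0.924 in CasM and 0.940 in ShamF, against 0.837 in ShamM, with ratios of 1.10 and 1.12 beside 1.09 and 1.11. Indoleacrylic acid is tryptophan without its amino group, and whether this entry is a compound of the tissue or a product of tryptophan in the instrument was not tested. A further entry for indoleacrylic acid in 18-month kidney had 0.0140 in CasM and 0.00638 in ShamF, against 0.0179 in ShamM. It differed from the other one by 0.32 (CasM over ShamM) and 0.52 (ShamF over ShamM) on the log2 scale.

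The names that belong to plant or synthetic indoles made up 7 entries. Indolebutyric acid, an auxin, had 1.04 in CasM and 0.896 in ShamF, against 0.955 in ShamM, in 12-week kidney. In 18-month kidney its 2 entries had 0.0240 and 0.0436 in CasM and 0.0350 and 0.0631 in ShamF, against 0.0238 and 0.0486 in ShamM. Both entries put ShamF above ShamM, at 1.47 and 1.30, and they were the members of that table that were higher in ShamF than in ShamM. In 18-month serum it had 0.00242 in CasM and 0.00217 in ShamF, against 0.00216 in ShamM, at percentile 0.23 of level. The auxin precursor 3-indoleacetonitrile had 0.0494 in CasM and 0.0687 in ShamF, against 0.0411 in ShamM, in 18-month serum. The plant alkaloid 3-(dimethylaminomethyl)indole (gramine) had 1.42 in CasM and 1.74 in ShamF, against 1.89 in ShamM, in 12-week serum. The pyridoindole 3-amino-1,4-dimethyl-5H-pyrido[4,3-b]indole, a heterocyclic amine of heated protein, had 0.00305 in CasM and 0.00297 in ShamF, against 0.00516 in ShamM, in 18-month liver. The labels do not say how these names were assigned, so an isomer that shares their mass was not told apart.

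Members measured at both ages in a matrix were counted by whether they kept a direction. Of 7 members measured in kidney at both ages, 1 had the same sign at 12 weeks and 18 months for CasM over ShamM and 1 for ShamF over ShamM. In liver these counts were 2 and 3 of 4, and in serum 5 and 10 of 15. The share of all compounds that kept a sign was not computed, so these counts are not read as a result about the members. Some signs rest on very small ratios. Serum indole-3-acetic acid, for CasM over ShamM, had log2 ratios of -0.032 at 12 weeks and 0.0088 at 18 months. DL-tryptophan and L-tryptophan were counted separately in serum. The tables of the ages were made separately, so the difference between ages was not tested.

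Castrated males were also set against females directly. Members past 2-fold for CasM over ShamF were 0 of 10 in 12-week kidney (5.26% of all compounds), 0 of 7 in 12-week liver (5.43% of all) and 4 of 21 in 12-week serum (10.1% of all). At 18 months they were 5 of 18 in kidney (11.9% of all), 0 of 9 in liver (10.1% of all) and 1 of 19 in serum (14.1% of all). In young serum 3 of these 4 were lower in CasM, namely indolepyruvate at 0.348, indole-3-carboxaldehyde at 0.419 and indole-3-acetic acid at 0.421 of ShamF, and glutaminyltryptophan was higher, at 2.70. In old kidney all 5 were higher in CasM (9.44% of all compounds were), led by the methoxyindole glucuronide at 11.4. Next were 5-methoxyindoleacetic acid at 3.05, indole-3-carboxaldehyde at 2.96, 5-hydroxyindoleacetic acid at 2.59 and indoleacrylic acid at 2.19. Of the 18 members there, 12 were higher in CasM than in ShamF (63.2% of all compounds were), with a median log2 ratio of 0.42. Scaling the arms to equal sums made this 9 of 18 with a median of 0.02, so the direction depends on scaling. Members for which castrated males reached the female value, such as kidney serotonin at 1.01 of ShamF, stood beside members for which they did not.

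Genes that open, convert, conjugate or carry tryptophan compounds formed a list of 36, of which 32 were measured at 12 weeks and 35 at 18 months. RNA values are the authors' group means, in FPKM at 12 weeks and in a normalised unit that is not named at 18 months, and the differences are of log2(mean + 1), which understates the change of low genes. Calls rest on the adjusted p in the authors' deposited table, with 6 CasM libraries at 12 weeks and 5 at 18 months for each tissue against 3 in each sham arm. The deposited tables at 12 weeks list each gene for 1 of the 3 comparisons, so a gene not listed there was not tested here. Nothing in the labels pairs the libraries or says that they came from separate animals, so these p-values measure the spread between libraries. In whole tissue, fewer cells of a type and less RNA per cell cannot be told apart.

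In 18-month kidney, 10 list genes rose and 10 fell with castration by the authors' deposited table (9.58% and 13.1% of all genes did), and 7 rose and 10 fell in ShamF over ShamM (7.91% and 8.9% of all). Most of the ShamF genes are also in the castration counts, and the comparisons share their ShamM libraries. Between CasM and ShamF, 9 were higher and 2 lower in CasM (2.73% and 4.41% of all). Kynu, kynureninase, had a mean of 43.1 in CasM and 33.1 in ShamF, against 10.6 in ShamM, and rose with castration by 1.93 on the log2 scale (adjusted p = 2.1e-21 in the authors' deposited table). Aadat, an aminotransferase that makes kynurenic acid, had 339 in CasM and 1625 in ShamF, against 192 in ShamM, with a log2 difference of 3.07 in ShamF (adjusted p = 1.07e-35 in the authors' deposited table). Kyat3, another kynurenine aminotransferase, had 50.6 in CasM and 122 in ShamF, against 27.4 in ShamM, and rose in ShamF by 2.11 (adjusted p = 1.27e-17 in the authors' deposited table). Kyat1, the other kynurenine aminotransferase of the list, had 34 in CasM and 31.4 in ShamF, against 61.6 in ShamM, and fell by 0.84 with castration (adjusted p = 1.67e-08 in the authors' deposited table). In ShamF Kyat1 fell by 0.95 (adjusted p = 8e-08 in the authors' deposited table), so the aminotransferases did not move together. Aadat and Kyat3 were higher in ShamF than in CasM as well, by the authors' deposited table, while Haao and Qprt, which lead to NAD, fell in both CasM and ShamF there.

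Maoa, the monoamine oxidase that starts the oxidation of serotonin, had 8.20 in CasM and 7.65 in ShamF, against 3.27 in ShamM, in 18-month kidney, and rose by 1.11 with castration (adjusted p = 3.64e-17 in the authors' deposited table). Its relative Maob had 6.41 in CasM and 4.8 in ShamF, against 2.59 in ShamM, and rose by 1.04 (adjusted p = 1.37e-11 in the authors' deposited table). Both oxidases were thus higher, in the arms in which kidney serotonin and its acid product were lower than in ShamM. In 12-week kidney Maoa had 3.14 in CasM and 3.24 in ShamF, against 2.26 in ShamM. It rose there with castration too (adjusted p = 0.0232 in the authors' deposited table), while serotonin stood at 1.09 of ShamM in CasM and 1.05 in ShamF. A link between the oxidases and serotonin was not tested. In 18-month kidney Inmt, which methylates tryptamine and other indole amines, had 446 in CasM and 149 in ShamF, against 1044 in ShamM. It fell by 1.23 with castration (adjusted p = 3.26e-04 in the authors' deposited table). In ShamF it differed by -2.80 (adjusted p = 2.34e-43 in the authors' deposited table). Methylated tryptamine was low in the same arms, at 0.147 in CasM and 0.161 in ShamF. That compound carries its methyl group on the ring nitrogen, whereas Inmt acts on the side-chain amine.

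For indoxyl sulfate the list holds the oxidation of indole, its sulfation and its transport. Cyp2e1, a cytochrome that oxidises indole, had 317 in CasM and 128 in ShamF, against 1233 in ShamM, in 18-month kidney, and fell by 1.95 with castration (adjusted p = 2.31e-43 in the authors' deposited table). Sult1a1, a phenol sulfotransferase, had 35.1 in CasM and 29.2 in ShamF, against 14.7 in ShamM, and rose by 1.20 (adjusted p = 5.3e-18 in the authors' deposited table). Slc22a6, which encodes OAT1, had 156 in CasM and 123 in ShamF, against 324 in ShamM, and fell by 1.05 (adjusted p = 2.43e-35 in the authors' deposited table). Slc22a8, which encodes OAT3, had 398 in CasM and 268 in ShamF, against 251 in ShamM, and rose by 0.66 (adjusted p = 3.95e-06 in the authors' deposited table). The basolateral uptake carriers thus moved in opposite directions with castration.

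In 12-week kidney 5 list genes rose and 8 fell with castration by the authors' deposited table (7.33% and 8.46% of all genes), and 1 rose and 3 fell in ShamF over ShamM (7.75% and 7.36% of all). Of the 32 measured list genes, 14 were listed for castration and 5 for ShamF over ShamM. The 12-week shares are of all measured genes, listed or not. Cyp2e1 had 114 in CasM and 31.3 in ShamF, against 1003 in ShamM, and fell by 3.12 with castration (adjusted p = 4.76e-04 in the authors' deposited table). Slc22a6 had 69.0 in CasM and 45.7 in ShamF, against 207 in ShamM, and fell by 1.57, and Acmsd, which diverts the quinolinic acid precursor, had 15.9 and 15, against 55.7, and fell by 1.75 (adjusted p = 4.76e-04 each in the authors' deposited table). The 5 hepatocyte genes summed to 31.4 in CasM and 52.2 in ShamF, against 148 FPKM in ShamM, in these kidneys. Most of each sum was Ttr, with 19.9 in CasM and 35.8 in ShamF, against 135 in ShamM. Alb had 8.97 in CasM and 10.3 in ShamF, against 8.78 in ShamM, and Apoa1 had 1.28 and 4.57, against 2.71. Serpina1c had 1.24 and 1.43, against 1.55, and Cps1 was at most 0.0627. Their part in the Cyp2e1 value was not tested. Slc22a8 had 387 in CasM and 276 in ShamF, against 231 in ShamM, and rose by 0.74 (adjusted p = 1.27e-03 in the authors' deposited table). The carrier pattern of OAT1 and OAT3 was thus seen at both ages. In the deposited means, kidney indoxyl sulfate lay above ShamM at 12 weeks and below it at 18 months, where equal sums brought ShamF close to ShamM.

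**Figure D5:**
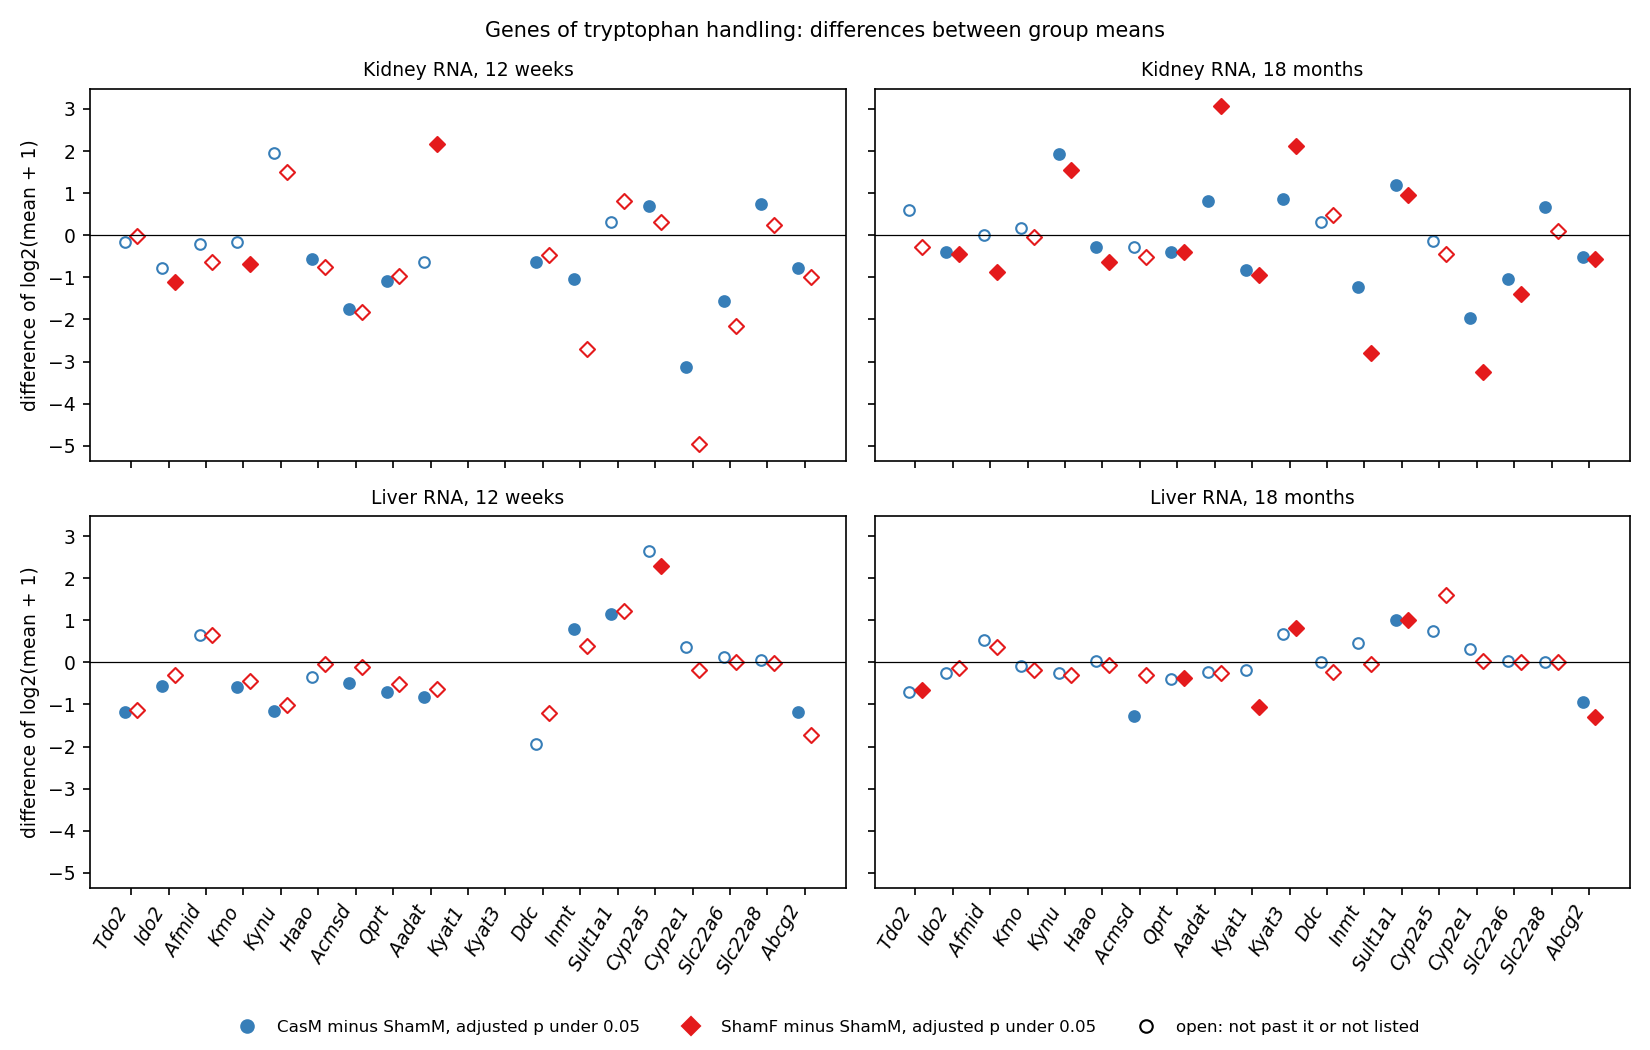
Differences of log2(mean + 1) from ShamM (vertical axes) for genes of tryptophan handling (horizontal axes) in kidney and liver RNA at 12 weeks and 18 months. Filled circles for CasM and diamonds for ShamF have an adjusted p under 0.05 in the authors' deposited table, open ones do not or are not listed. In 18-month kidney Aadat is at 3.07 in ShamF and Cyp2e1 at -1.95 in CasM.

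In 12-week liver 2 list genes rose and 8 fell with castration by the authors' deposited table (5.93% and 6.3% of all genes). Of the 32 measured list genes, 16 were listed for castration there. Tdo2, the liver dioxygenase that opens tryptophan, had 286 in CasM and 292 in ShamF, against 643 in ShamM, and fell by 1.17 (adjusted p = 8.56e-04 in the authors' deposited table). Kynu had 30.2 in CasM and 33.6 in ShamF, against 68.8 in ShamM, and fell by 1.16 (adjusted p = 8.56e-04 in the authors' deposited table). Sult1a1 had 569 in CasM and 601 in ShamF, against 257 in ShamM, and rose by 1.15 (adjusted p = 8.56e-04 in the authors' deposited table). In this tissue DL-tryptophan stood at 1.09 of ShamM in CasM and 1.11 in ShamF, and kynurenine at 0.794 and 0.926. For ShamF over ShamM only 1 list gene, Cyp2a5, was listed there, and it rose (1.72% of all genes rose and 1.93% fell). Its means were 1957 in CasM and 1533 in ShamF, against 311 in ShamM, with an adjusted p of 8.56e-04 in the authors' deposited table. The other list genes, Tdo2 and Sult1a1 among them, were not tested for ShamF over ShamM, so that count says nothing about them. Macrophage RNA, summed over 3 genes, was 56.8 in CasM and 96.0 in ShamF, against 29.2 in ShamM, in these livers, and its part in the kynurenine enzymes' values was not tested.

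In 18-month liver 1 list gene rose and 2 fell with castration by the authors' deposited table (1.08% and 1.01% of all genes), and 4 rose and 4 fell in ShamF (5.87% and 3.91% of all). Sult1a1 had 556 in CasM and 553 in ShamF, against 276 in ShamM, and rose by 1.0 with castration (adjusted p = 3.23e-03 in the authors' deposited table). Acmsd had 2.33 in CasM and 5.53 in ShamF, against 7.11 in ShamM, and fell by 1.28 (adjusted p = 7.85e-04 in the authors' deposited table). Tdo2 had 541 in CasM and 556 in ShamF, against 878 in ShamM, and fell in ShamF by 0.66 (adjusted p = 5.58e-03 in the authors' deposited table). Abcg2, an efflux carrier of sulfated conjugates, had 25.2 in CasM and 19.7 in ShamF, against 49.8 in ShamM, and fell by 0.95 with castration (adjusted p = 6.55e-04 in the authors' deposited table). Liver kynurenine stood at 1.23 of ShamM in CasM and at 1.62 in ShamF in that organ, so it lay above ShamM in the arms whose mean Tdo2 RNA was lower.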

How the data were processed

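Metabolite values are the authors' deposited group means per compound for castrated males, sham females and sham males in 6 tables, in a unit that no header names. The labels name no platform, number of animals or normalisation for them. RNA values are the authors' mean FPKM at 12 weeks, per the file headers, and a deposited normalised signal with no named unit at 18 months. The deposited log2 fold changes and the deposited adjusted p-value of each comparison are the authors' own, from DESeq2 at 18 months per the file headers. In the 18-month tables the sign of the deposited log2 fold ran opposite to the group means for nearly all called genes (4047 of 4051 in kidney for castration), so directions were taken from the means. The submitters' processing notes name HISAT2, SAMtools, Cufflinks and the build mm10.

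Entries were matched by name, and 2 entries without a name were left out. Ratios of means were computed in Python 3.11.15 with pandas 2.3.3 and NumPy 2.4.6, without a pseudocount. The limit was 2-fold, and an adjusted p of 0.05 for genes. Compounds in at least 4 tables, those past 2-fold and the defining compounds of each route were named, and the remaining members were given as well. Genes were named from those with large called differences, but not by a full ranking. At 12 weeks, called genes left unnamed include, for castration, Abcg2 in liver (-1.18) and Qprt (-1.10), Inmt (-1.04) and Abcg2 (-0.77) in kidney. For ShamF over ShamM in 12-week kidney they include Aadat (2.18), Slco4c1 (-1.65) and Ido2 (-1.10). Maoa in 12-week kidney was named with a smaller difference (0.34). Slc22a8, Maob, Haao, Qprt and Kyat1 in kidney and Tdo2 in 18-month liver were added after their values were seen. The members and gene lists were chosen with earlier results of these data known. With 1 mean per arm, no test across compounds was fitted. CasM over ShamM and ShamF over ShamM share the ShamM mean.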

Additional observations from a re-analysis of the deposited data

How the results depend on the processing

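Counts of members past the limit moved mainly with the limit itself. For the alternative settings below, the share of all compounds was not computed. These counts therefore show how the members' counts moved and are not set against a background. At a limit of 1.5-fold, CasM over ShamM had 3 in kidney, 2 in liver and 7 in serum at 12 weeks, and 8, 2 and 2 at 18 months. ShamF over ShamM had 3 in 12-week kidney, and 11, 3 and 5 in kidney, liver and serum at 18 months. CasM over ShamF had 1, 1 and 9 at 12 weeks, 10 and 1 in kidney and liver at 18 months and 2 in 18-month serum. At a limit of 3-fold, CasM over ShamM had 0 in each 12-week table, 3 in 18-month kidney and 0 in 18-month liver. At that limit ShamF over ShamM had 0 in 12-week liver and 1 in 18-month serum, and CasM over ShamF had 0 in both serum tables and 2 in 18-month kidney.

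Leaving out compounds of low mean gave 3 for CasM over ShamM in 18-month kidney and 1 for ShamF over ShamM in 12-week liver. With a pseudocount, 12-week liver had 0 for CasM over ShamM and 0 for ShamF over ShamM, and 18-month liver had 0 for CasM over ShamM. With equal sums per arm, ShamF over ShamM had 1 in 12-week liver, and CasM over ShamM had 0 in 18-month liver and 2 in 18-month serum. That scaling also moved the log2 ratio of ShamF over ShamM in 18-month kidney to 0.27 for 5-hydroxytryptophan, 0.26 for kynurenic acid and -0.09 for indoxyl sulfate. Centring on the median and keeping 1 entry per name left every count within 1.5 times.

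No paired analysis was possible because the metabolite tables hold 1 mean per arm, and leaving out each replicate was not run for the same reason. Depth and error are unknown, so ratios of low members carry no interval. The means cannot show whether 1 animal decides a value.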

Other observations

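Some compounds next to the kynurenine route fall outside the name rule. In 12-week serum 3-hydroxyanthranilic acid, made from 3-hydroxykynurenine by kynureninase and chosen after its values were seen, had 2.69 in CasM and 3.40 in ShamF, against 4.16 in ShamM. Picolinic acid, the side product that Acmsd gives, had 0.677 in CasM and 0.577 in ShamF, against 0.929 in ShamM, in that table. Nicotinic acid had 19.8 in CasM and 12.0 in ShamF, against 10 in ShamM, there. In 12-week liver NAD had 0.159 in CasM and 0.0613 in ShamF, against 0.0939 in ShamM, and in 12-week kidney 6.55 and 3.31, against 5.75. NAD was thus below ShamM in ShamF and above it in CasM in both young organs. At 18 months kidney NAD had the same order, at 1.27 of ShamM in CasM and 0.831 in ShamF. In 18-month liver both arms lay above ShamM, at 1.11 in CasM and 1.16 in ShamF.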
